A study of Mus musculus with 12 samples.

Results

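The genes described here are 10 genes of megakaryocytes, the marrow cells that shed platelets: Pf4, Ppbp, Itga2b, Gp9, Gp1ba, Gp1bb, Gp5, Gp6, Vwf and Tubb1. They were found by gene symbol in the deposited expression table, where each matched 1 gene ID, and they are 10 of 40481 genes. RNA was sequenced from mouse hematopoietic stem cells (HSCs) in 4 groups of 3 libraries. By genotype they were WT (wild type) or iE/R, an inducible ETV6-RUNX1 allele, called ETV6-RUNX1 here. The source was the fetal liver of E14.5 embryos or the bone marrow of adults 8 weeks old. After sorting, cells of all 4 groups, WT included, spent 3 days in HSC expansion culture with doxycycline at 1 µg/mL, a drug commonly used to switch on inducible alleles. The driver of the allele, the number of animals behind a library and whether replicates came from separate animals are not given in the sources used here. The p-values below therefore measure the spread between these libraries, which may be partly technical.

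Platelets are made by megakaryocytes, large cells that arise from HSCs and pack granules with Pf4 and Ppbp, chemokines released when a platelet is activated. Their surface carries the receptor GPIb-IX-V, built from the products of Gp1ba, Gp1bb, Gp9 and Gp5, which catches the adhesive protein encoded by Vwf. It also carries the collagen receptor encoded by Gp6 and the fibrinogen receptor, whose alpha chain is CD41 (Itga2b). Tubb1 encodes the beta tubulin of the microtubule coil of the platelet. Several of these genes, Vwf and Itga2b among them, are also expressed in a part of the HSC pool. RUNX1 and factors of the GATA and ETS families act on megakaryocyte genes. ETV6-RUNX1, a fusion found in childhood B-cell leukemia, joins the amino-terminal part of the ETS-family protein ETV6 to most of RUNX1.

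Library totals ranged from 32.3 to 64.5 M reads, and 13012 to 13750 genes per library reached 1 CPM, where CPM is the read count scaled to a fixed library total. A count of 3 reads, used as the floor, equalled 0.0465 CPM in the deepest and 0.0928 CPM in the shallowest library, for counting error only. No 2 libraries were identical. All 8 HSC markers examined were at or above 1 CPM in the mean of every group, and their summed level was 541 to 673 CPM in WT marrow, 832 to 942 in ETV6-RUNX1 marrow, 456 to 610 in WT fetal liver and 1397 to 1702 in ETV6-RUNX1 fetal liver. The 10 genes took 0.138% to 0.184% of all reads in WT marrow and 0.313% to 0.464% in WT fetal liver. In ETV6-RUNX1 fetal liver they took 0.738% to 0.818%. In ETV6-RUNX1 marrow the shares were 0.0668% in replicate 1, 0.212% in replicate 2 and 0.0478% in replicate 3, and this group's replicates stood apart for most of the genes. In these bulk libraries, fewer megakaryocyte-like cells and less RNA per cell cannot be told apart.

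**Figure D1:**
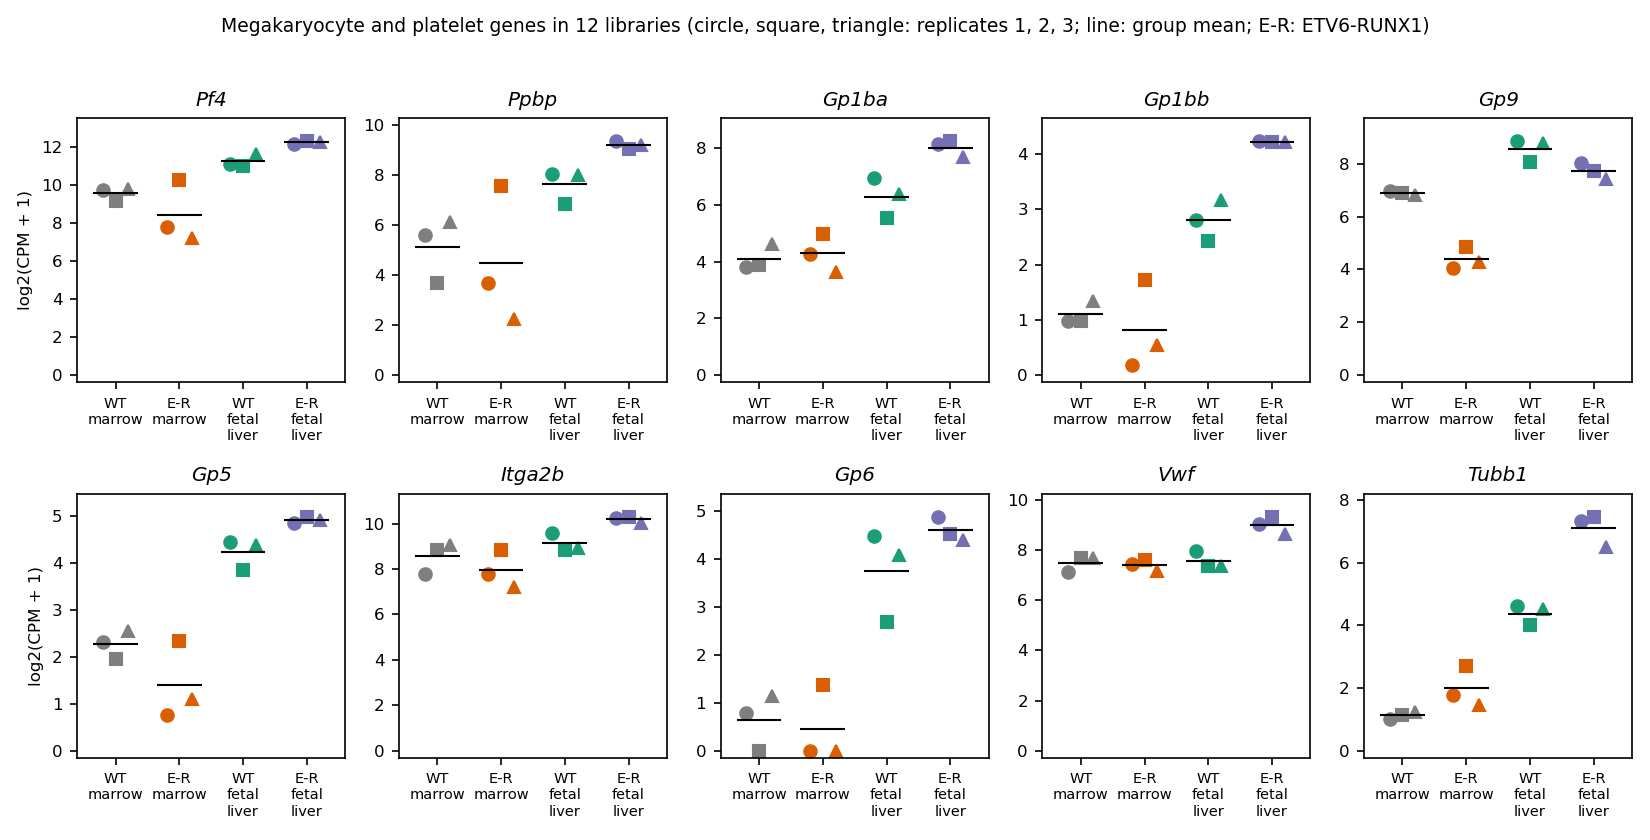
Level of each of the 10 genes in every library as log2(CPM + 1), with 1 panel per gene, the 4 groups on the horizontal axis (E-R is ETV6-RUNX1), symbols for replicates 1 to 3 and a bar at the group mean. The highest single library is from ETV6-RUNX1 fetal liver for every gene but Gp9, although Gp6 overlaps with WT fetal liver there, and replicate 2 lies above replicates 1 and 3 of ETV6-RUNX1 marrow in all 10 panels.

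Genotype was compared within each source with limma on log2(CPM + 1), adjusted by the Benjamini-Hochberg method over 14271 genes, and a gene was called at an adjusted p under 0.05. In fetal liver, 5 of the 10 genes rose in ETV6-RUNX1 cells (Tubb1, Gp1ba, Vwf, Gp1bb and Itga2b) and 1 fell (Gp9). Across the table, 24.8% of genes tested rose by the same rule and 18.3% fell, 43.1% in all. The median log2 fold change was 1.24 over the 10 genes and 0.08 over all genes tested. In bone marrow none of the 10 rose and Gp9 fell, against 14.4% of all genes called higher and 4.93% called lower, 19.4% in all. There the medians were -0.44 and 0.13. The genotype effect itself differed between the sources, as an interaction, for 5 of the 10 genes (Gp9, Gp1bb, Gp5, Vwf and Tubb1), all toward a more positive effect in fetal liver, against 5.56% of all genes in this direction and 3.62% in the other, 9.19% in all. The median of this difference was 1.66 over the 10 genes and -0.05 over all genes tested.

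**Figure D2:**
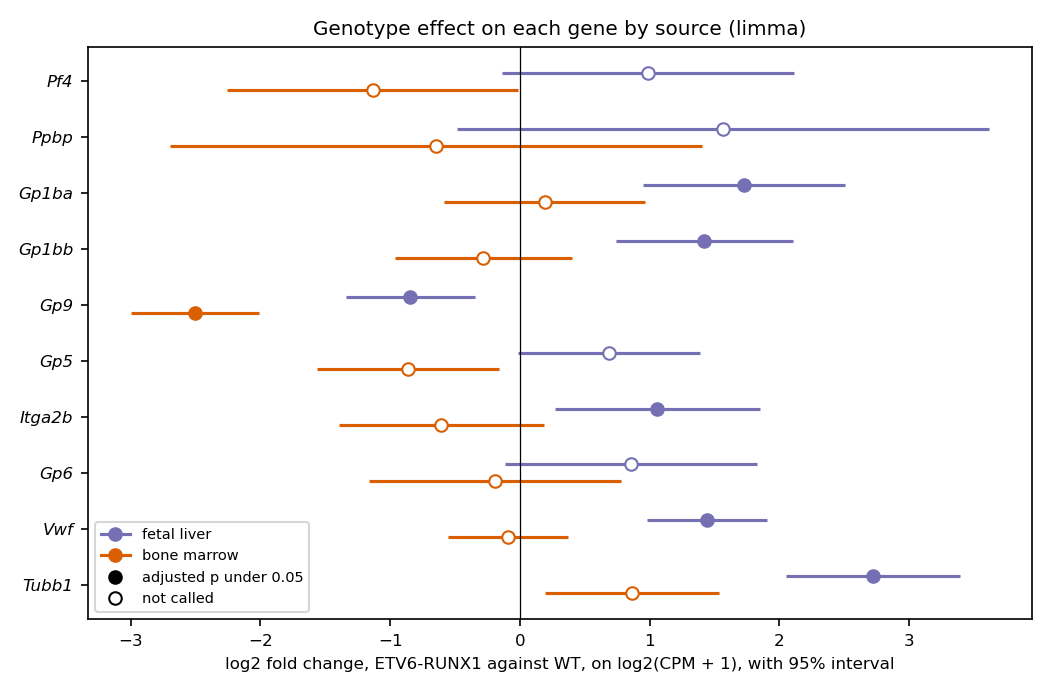
Log2 fold change of ETV6-RUNX1 against WT for each gene in fetal liver (violet) and bone marrow (orange), with 95% confidence intervals from limma, filled points marking an adjusted p under 0.05. The fetal liver point lies to the right of the marrow point for all 10 genes, and Gp9 is the gene called lower in both sources.

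Tubb1 (ENSMUSG00000016255, GRCm38 chr2:174450695-174457882, plus strand, 4 merged exons), the platelet beta tubulin, showed the largest rise of the 10 in fetal liver. Its levels were 23.4, 15 and 22.0 CPM in WT fetal liver replicates 1 to 3 and 160.3, 176 and 89.4 CPM in ETV6-RUNX1 fetal liver. The lowest ETV6-RUNX1 library thus stood well above the highest WT library. The log2 fold change was 2.72 ± 0.31 (SE; limma adjusted p = 1.22e-05), and the mean level was 7.05 times that of WT. In marrow the levels were 1.01, 1.19 and 1.35 CPM in WT and 2.43, 5.56 and 1.76 CPM in ETV6-RUNX1 cells. Tubb1 was the only one of the 10 whose ETV6-RUNX1 marrow libraries all lay above all WT marrow libraries, yet the marrow difference of 0.86 ± 0.31 did not pass the limma test (adjusted p = 0.0665). It was called in 5 of 22 alternative settings, among them DESeq2 (1.32, adjusted p = 0.00227), edgeR (1.31, adjusted p = 0.0314) and a pseudocount of 0.1 (1.23, adjusted p = 0.0307). The effects differed between the sources by 1.86 ± 0.44 (limma adjusted p = 0.0187), a call lost under 6 of 21 alternative settings.

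Groups that did not overlap were more frequent than calls. In fetal liver 8 of the 10 genes were higher in every ETV6-RUNX1 library than in any WT library, Gp9 was lower in all of them, and Gp6 overlapped. Of all genes tested, 32.3% were higher and 23.3% lower without overlap in this comparison, 55.6% in all. In marrow Tubb1 was higher and Gp9 lower without overlap, where 23.6% of all genes were higher and 10.9% lower, 34.5% in all. With 3 libraries against 3, an exact two-sided permutation test gave p = 0.1 for each non-overlapping gene, the smallest value it can give.

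The subunits of the GPIb-IX-V receptor did not move together. Gp9 (ENSMUSG00000030054, chr6:87778072-87779768, plus strand), which encodes the small GPIX chain, was 457, 268 and 436 CPM in WT fetal liver and 262, 208 and 169 CPM in ETV6-RUNX1 fetal liver. In marrow Gp9 was 123, 118 and 113 CPM in WT and 15.4, 27.8 and 18.4 CPM in ETV6-RUNX1 cells. Every ETV6-RUNX1 library was below every WT library of its source, with a wide gap in marrow and a narrow gap in fetal liver. Gp9 fell by 2.51 ± 0.23 on the log2 scale in marrow (limma adjusted p = 2.77e-05) and by 0.84 ± 0.23 in fetal liver (limma adjusted p = 0.00911). The ETV6-RUNX1 mean was 0.174 of the WT mean in marrow and 0.55 of it in fetal liver. The difference between the sources was 1.66 ± 0.33 (limma adjusted p = 0.00623).

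Gp1ba (ENSMUSG00000050675, chr11:70639122-70642036, plus strand) encodes the long chain of the receptor that binds the Vwf protein. It was 122, 45.1 and 82.5 CPM in WT fetal liver and 280.2, 299.5 and 203 CPM in ETV6-RUNX1 fetal liver, with no overlap. The rise was 1.73 ± 0.36 on the log2 scale (limma adjusted p = 0.00166), 3.14 times the WT mean. In marrow it was 12.9, 13.6 and 23.8 CPM in WT and 18.2, 30.4 and 11.4 CPM in ETV6-RUNX1 cells, and the groups overlapped. The marrow difference was 0.19 ± 0.36 (limma adjusted p = 0.746), and its sign turned, to -0.15 without ETV6-RUNX1 marrow replicate 2 and to -0.071 under quantile normalization.

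Gp5 (ENSMUSG00000047953, chr16:30307685-30310779, minus strand), the chain that joins the complex most loosely, was 20.9, 13.4 and 20.0 CPM in WT and 28.0, 30.8 and 29.1 CPM in ETV6-RUNX1 fetal liver. These groups did not overlap, but the difference of 0.69 ± 0.33 was not called in the limma fit of all 12 libraries (adjusted p = 0.103). In marrow Gp5 was 3.96, 2.86 and 4.86 CPM in WT and 0.702, 4.08 and 1.14 CPM in ETV6-RUNX1 cells. Replicates 1 and 3 were below all WT libraries and replicate 2 was among them. The effects differed between the sources by 1.56 ± 0.46 (limma adjusted p = 0.0499), a call that 15 of 21 alternative settings lost.

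Gp1bb (ENSMUSG00000050761, chr16:18620317-18622403, minus strand) encodes the chain linked to that of Gp1ba. Its reads are uncertain, since 1902 of its 2087 exon bases are also exon of Sept5 on the same strand and 867 are shared with Gm49601. Gp1bb was 5.97, 4.37 and 8.00 CPM in WT and 17.7, 17.5 and 17.7 CPM in ETV6-RUNX1 fetal liver, with no overlap and a log2 fold change of 1.42 ± 0.32 (limma adjusted p = 0.00264). The neighbour Sept5 was between 0.403 and 1.70 CPM in all 12 libraries. In marrow Gp1bb was 0.971, 0.974 and 1.52 CPM in WT and 0.135, 2.29 and 0.464 CPM in ETV6-RUNX1 cells, where 0.135 CPM stands for 5 reads. The difference between the sources was 1.70 ± 0.45 (limma adjusted p = 0.031), a call lost under 12 of 21 alternative settings.

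The levels of these chains per kilobase of exon were set against the Gp9 level within each library, a choice made after Gp9 was seen to fall. The ratios restate that fall beside the levels of the other chains, and they are given as a description without a test. In WT cells Gp1ba was at 0.0338, 0.0375 and 0.0682 of the Gp9 level in marrow and at 0.0865, 0.0545 and 0.0613 in fetal liver. In ETV6-RUNX1 cells the ratio was 0.382, 0.356 and 0.2 in marrow and 0.346, 0.467 and 0.39 in fetal liver. The ratio was higher in all 6 ETV6-RUNX1 libraries than in any of the 6 WT libraries; in marrow the Gp1ba level itself overlapped between genotypes. Gp5 per Gp9 was 0.00977 to 0.0172 against 0.0183 to 0.0589 in marrow and 0.0183 to 0.02 against 0.0427 to 0.0693 in fetal liver (WT against ETV6-RUNX1). Gp1bb per Gp9 did not overlap in fetal liver (0.00551 to 0.00775 in WT, 0.0285 to 0.0443 in ETV6-RUNX1) and overlapped in marrow. The ratio of Gp1ba to Gp1bb overlapped between genotypes in both sources. The size of each ratio with Gp1bb is uncertain, because most of its exon bases are shared with Sept5.

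**Figure D3:**
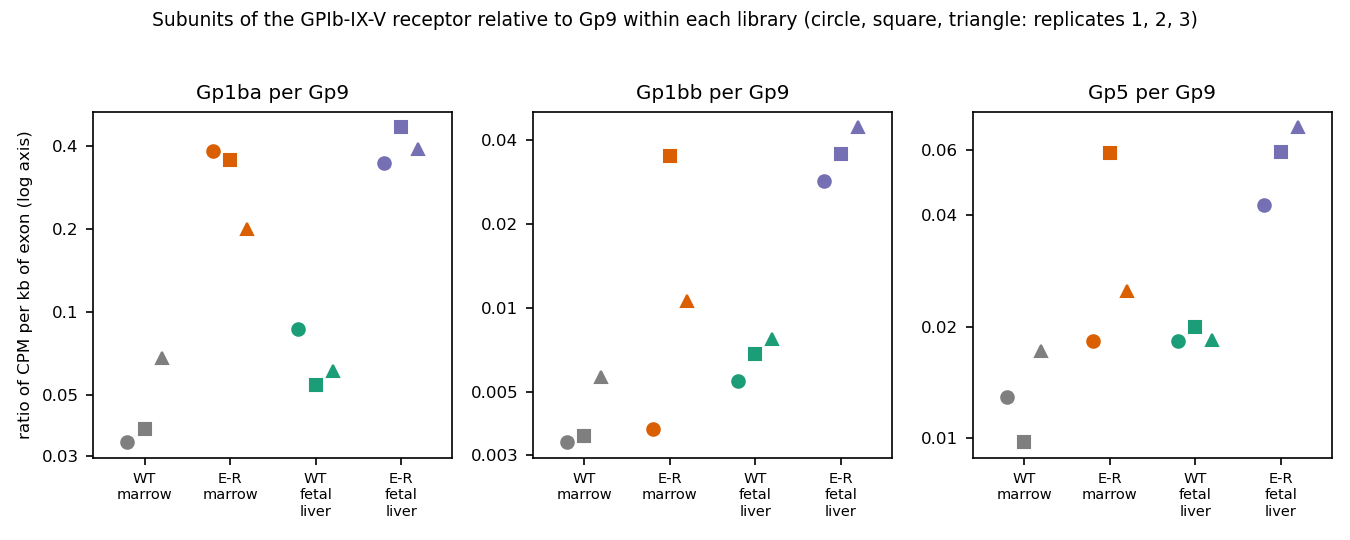
Ratio of the CPM per kilobase of exon of Gp1ba, Gp1bb and Gp5 to that of Gp9 in each library, on log axes, with circles, squares and triangles for replicates 1, 2 and 3 (E-R is ETV6-RUNX1). In the Gp1ba panel the ETV6-RUNX1 libraries lie between 0.2 and 0.467 and the WT libraries between 0.0338 and 0.0865.

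Promoter windows are shown for Gp9, Gp1ba and Gp5, chains of the same receptor, of which Gp9 fell and Gp1ba rose in fetal liver while Gp5 was not called, and for Tubb1, which rose most. Each window runs from 250 bases before to 50 bases after the annotated start (RefSeq, GRCm38.p6) and is written 5′ to 3′ on the gene's strand. Capitals mark matches, on either strand, to TGTGGT for RUNX, AGATAA for the GATA family, CGGAAG for the ETS family and its variant AGGAAG, and TGANTCA for NF-E2 and AP-1.
Gp9, chr6:87777820-87778119, plus strand: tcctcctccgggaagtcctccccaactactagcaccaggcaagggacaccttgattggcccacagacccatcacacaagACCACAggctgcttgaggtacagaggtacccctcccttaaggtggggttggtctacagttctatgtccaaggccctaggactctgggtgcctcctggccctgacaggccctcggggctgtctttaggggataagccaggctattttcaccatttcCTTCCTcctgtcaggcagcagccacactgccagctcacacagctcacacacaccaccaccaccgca
Gp1ba, chr11:70638872-70639171, plus strand: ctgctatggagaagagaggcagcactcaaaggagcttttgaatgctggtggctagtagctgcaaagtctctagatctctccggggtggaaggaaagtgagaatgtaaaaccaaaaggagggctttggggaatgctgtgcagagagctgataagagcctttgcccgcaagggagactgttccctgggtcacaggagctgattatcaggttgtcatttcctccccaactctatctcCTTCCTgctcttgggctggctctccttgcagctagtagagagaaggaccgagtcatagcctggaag
Gp5, chr16:30310732-30311031, minus strand: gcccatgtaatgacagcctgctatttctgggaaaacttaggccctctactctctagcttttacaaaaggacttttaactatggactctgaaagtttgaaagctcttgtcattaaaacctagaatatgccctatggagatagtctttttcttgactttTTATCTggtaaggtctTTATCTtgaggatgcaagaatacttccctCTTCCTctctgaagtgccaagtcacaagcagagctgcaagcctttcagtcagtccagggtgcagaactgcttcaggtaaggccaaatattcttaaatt
Tubb1, chr2:174450345-174450644, plus strand: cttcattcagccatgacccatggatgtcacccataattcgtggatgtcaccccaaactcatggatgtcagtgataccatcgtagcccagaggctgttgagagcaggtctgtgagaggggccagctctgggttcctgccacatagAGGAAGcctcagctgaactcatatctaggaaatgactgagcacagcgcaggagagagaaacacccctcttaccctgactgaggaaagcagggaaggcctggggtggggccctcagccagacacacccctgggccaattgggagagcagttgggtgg

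Windows were found for 9 of the 10 genes, all but Vwf. Gp9 was the only one of these 9 with a RUNX core, which starts 171 bases before the start site and reads ACCACA on the gene's strand; 16.8% of 32851 promoter windows hold a match. AGATAA, the only GATA spelling searched, occurred in 3 of the 9, in Gp5 (at positions -93 and -77), Gp6 (-144) and Pf4 (+37), against 11.2% of all windows. Other spellings, such as the TGATAA in the Gp1ba window, were not searched or marked. The ETS core with A before it was found in 7 of the 9 and in 35.4% of all windows, while CGGAAG was found only in Gp1bb (16.9% of all windows). TGANTCA occurred in Gp1bb and Ppbp, against 7.81% of all windows. These matches describe letters in the windows and are not binding sites.

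Vwf (ENSMUSG00000001930, chr6:125546774-125686679, plus strand), the adhesive ligand of the receptor, was at similar levels in the groups other than ETV6-RUNX1 fetal liver. It was 137, 204 and 205 CPM in WT marrow, 173, 192 and 144 CPM in ETV6-RUNX1 marrow and 251, 166 and 162 CPM in WT fetal liver, and all 3 groups overlapped. In ETV6-RUNX1 fetal liver it was 532, 642 and 399.7 CPM, above all 9 other libraries, a place shared by Itga2b and the rest of the 10 genes except Gp9 and Gp6. The rise in fetal liver was 1.44 ± 0.22 on the log2 scale (limma adjusted p = 0.000124), the marrow difference was -0.09 ± 0.22 (adjusted p = 0.799), and the effects differed by 1.53 ± 0.30 (adjusted p = 0.00679). Vwf is also made by endothelial cells. The 10 endothelial markers examined summed to 74.5 to 102 CPM in WT marrow, 98.7 to 116 in ETV6-RUNX1 marrow, 89.1 to 111 in WT fetal liver and 174 to 246 in ETV6-RUNX1 fetal liver. Among them Tek, the highest in ETV6-RUNX1 fetal liver, was 75.9 to 127 CPM there and 13.5 to 28.4 CPM in WT fetal liver. Cdh5 was 15.4 to 15.6 CPM in ETV6-RUNX1 fetal liver and 5.26 to 7.91 CPM in WT fetal liver. Ptprb and Ecscr were also higher there without overlap. Emcn went the other way, at 8.8 to 15.6 CPM in ETV6-RUNX1 and 16.4 to 20.8 CPM in WT fetal liver, as did Plvap at lower levels. Sox17 and Cldn5 were at or under the floor in ETV6-RUNX1 fetal liver. The part of endothelial cells in the Vwf result was not tested.

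Itga2b (ENSMUSG00000034664, chr11:102453297-102470122, minus strand), the alpha chain of the fibrinogen receptor, was 782, 460.4 and 495 CPM in WT and 1229.9, 1261 and 1044 CPM in ETV6-RUNX1 fetal liver. The groups did not overlap, and the log2 fold change was 1.06 ± 0.37 (limma adjusted p = 0.0316). This call was near the threshold: 7 of 22 alternative settings lost it, edgeR among them (adjusted p = 0.0502). In marrow Itga2b was 217, 459.6 and 533 CPM in WT and 223, 457 and 148 CPM in ETV6-RUNX1 cells, which overlapped (log2 fold change -0.60 ± 0.37, limma adjusted p = 0.264). The gene of the partner chain, Itgb3, rose in fetal liver by 2.12 ± 0.46 (limma adjusted p = 0.00207).

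Gp6 (ENSMUSG00000078810, chr7:4363965-4397744, minus strand), the collagen receptor, was far lower in marrow than in fetal liver. It was 21.4, 5.44 and 15.9 CPM in WT and 28.5, 22.2 and 20.2 CPM in ETV6-RUNX1 fetal liver, and the highest WT library lay within the ETV6-RUNX1 range. The difference of 0.86 ± 0.45 was not called (limma adjusted p = 0.142). In marrow 3 of the 6 libraries had no Gp6 read: WT replicates 1 to 3 had 38, 0 and 49 reads and ETV6-RUNX1 replicates had 0, 51 and 0. No reads at these depths allow a level up to the floor.

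Pf4 (ENSMUSG00000029373, chr5:90772435-90773383, plus strand) and Ppbp (ENSMUSG00000029372, chr5:90768518-90770063, plus strand), neighbours on chromosome 5 that encode platelet alpha-granule chemokines, were the 2 highest of the 10 genes per kilobase of exon in ETV6-RUNX1 fetal liver. Pf4 was 2229.5, 2037 and 3149 CPM in WT and 4623, 4995 and 4829 CPM in ETV6-RUNX1 fetal liver. Ppbp was 260.3, 113 and 251 CPM in WT and 640.5, 523 and 576 CPM in ETV6-RUNX1 fetal liver. Neither gene's groups overlapped, with means 1.95 and 2.79 times the WT mean, yet neither was called in the fit of all 12 libraries (log2 fold changes 0.99 ± 0.52 and 1.57 ± 0.96, limma adjusted p = 0.143 and 0.203). That fit shares a single estimate of the spread with ETV6-RUNX1 marrow. When only the 6 fetal liver libraries were fitted, both were called (limma adjusted p = 0.000587 for Pf4 and 0.000552 for Ppbp), as was Gp5 (adjusted p = 0.0103), and all 3 were also called without ETV6-RUNX1 marrow replicate 2 (adjusted p = 0.00229, 0.0305 and 0.0205). Calls were common at these settings, with 46% and 43.4% of all genes tested called in either direction.

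By the SD of log2(CPM + 1), these chemokine genes had the widest spread of the 10 in ETV6-RUNX1 marrow. Pf4 was 856, 567 and 891 CPM in WT and 224, 1217 and 149 CPM in ETV6-RUNX1 replicates 1 to 3. Ppbp was 46.9, 11.7 and 68.7 CPM in WT and 11.6, 184 and 3.71 CPM in ETV6-RUNX1 cells. For both genes, ETV6-RUNX1 replicates 1 and 3 lay below every WT marrow library, narrowly so for replicate 1 of Ppbp, and replicate 2 lay above every one. The marrow differences were -1.13 ± 0.52 for Pf4 (limma adjusted p = 0.141) and -0.65 ± 0.96 for Ppbp (adjusted p = 0.667).

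ETV6-RUNX1 marrow replicate 2 was the highest of its group for all 10 genes, whereas 30.8% of all genes tested were highest in that library. It exceeded the higher of the other replicates 15.8-fold for Ppbp, 5.44-fold for Pf4, 4.93-fold for Gp1bb and 3.56-fold for Gp5, but 1.51-fold for Gp9 and 1.11-fold for Vwf. The median within-group SD of the 10 genes was 0.795 on the log2(CPM + 1) scale in this group, against 0.223 over all genes tested. The corresponding SDs were 0.347 and 0.233 in WT marrow, 0.394 and 0.184 in WT fetal liver, and 0.197 and 0.199 in ETV6-RUNX1 fetal liver. Of 68 further megakaryocyte and platelet genes in 4 lists, 57 (83.8%) were highest in the same library of ETV6-RUNX1 marrow. The 8 erythroid markers summed to 421, 594 and 632 CPM in ETV6-RUNX1 marrow replicates 1 to 3, most of it Hbb-bt, which was 366, 533 and 567 CPM. Among the low erythroid markers, Hba-a1 was 1.11 CPM in replicate 2 and had no reads in replicates 1 and 3. Others did not follow it: Klf1 was 1.46, 0.278 and 1.27 CPM in replicates 1 to 3, and Rhag was 1.00, 0.618 and 0.155 CPM.

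The marrow comparison depended on this library. Without it, 4 of the 10 genes were called lower in ETV6-RUNX1 marrow: Gp9, Pf4 (-2.04, limma adjusted p = 0.000519), Gp5 (-1.34, adjusted p = 0.00568) and Ppbp (-2.18, adjusted p = 0.0364). At that setting 10.7% of all genes tested were called in either direction, and the share called lower alone was not taken. The fit then rests on 2 libraries for that group. The difference between the sources was then called for 9 of the 10 genes, all but Gp6, against 9.49% of all genes. With all libraries, Pf4, Gp9, Gp1bb, Gp5 and Ppbp were below all WT marrow libraries in replicates 1 and 3, and Pf4, Gp1ba, Gp1bb, Gp6, Tubb1 and Ppbp were above all WT marrow libraries in replicate 2. Gp9 stayed below WT in all 3. This split of the replicates was made after replicate 2 was seen to stand apart, and its share over all genes tested was not taken.

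**Figure D4:**
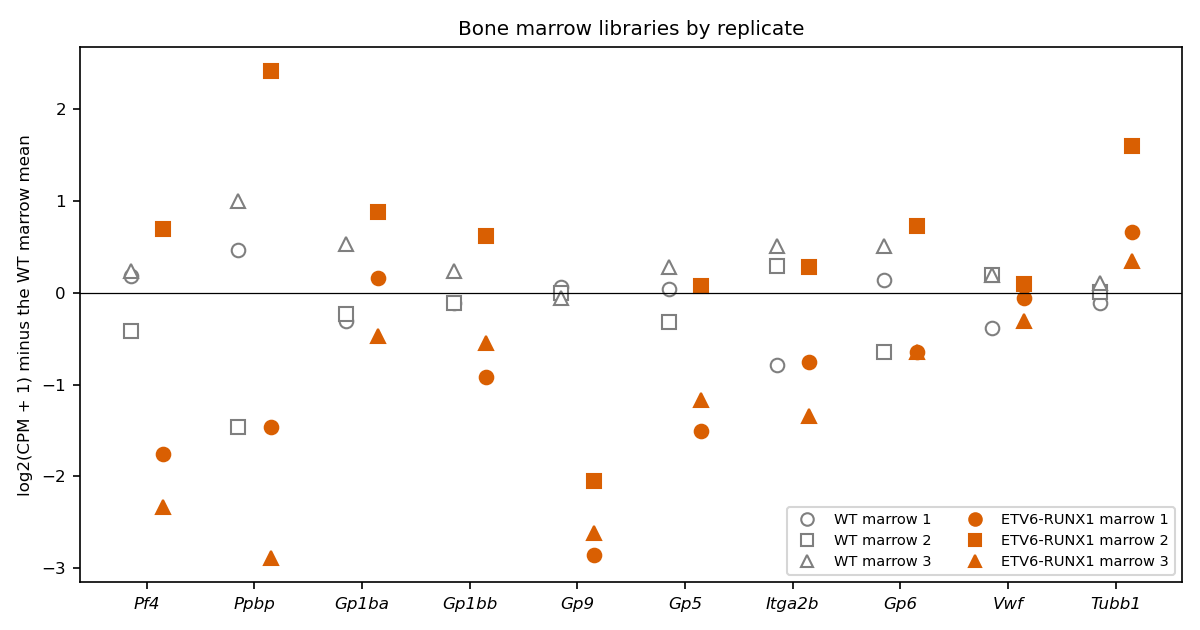
Level of each gene in the 6 marrow libraries as log2(CPM + 1) minus the WT marrow mean, with open symbols for WT, filled symbols for ETV6-RUNX1, and circles, squares and triangles for replicates 1, 2 and 3. The filled square, replicate 2, is the highest ETV6-RUNX1 point for all 10 genes, and Gp9 is the gene for which it too lies below the WT points.

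Within each genotype, fetal liver was compared with bone marrow; these comparisons share their libraries with those above. In WT cells 6 of the 10 genes were higher in fetal liver: Tubb1 (3.25 ± 0.31 on the log2 scale), Gp6 (3.11 ± 0.45), Gp1ba (2.19 ± 0.36), Gp5 (1.96 ± 0.33), Gp1bb (1.70 ± 0.32) and Gp9 (1.67 ± 0.23). Over all genes tested 3.38% passed as higher and 7.77% as lower, 11.1% in all, and the medians were 1.83 for the 10 genes and -0.07 for all. Pf4 just missed the threshold (1.68 ± 0.52, limma adjusted p = 0.0539), and Vwf differed by 0.08 ± 0.22 (adjusted p = 0.861), with a 95% interval from -0.39 to 0.54. Without overlap, 8 genes were higher in WT fetal liver, all but Itga2b and Vwf, against 10.6% of all genes higher, 18.9% lower and 29.5% in all. In ETV6-RUNX1 cells all 10 were called higher in fetal liver and none overlapped, where 10.4% of all genes passed as higher and 18.2% as lower, 28.6% in all. Without overlap, 14.4% of all genes were higher and 27.8% lower, 42.2% in all. The differences ran from 1.61 ± 0.22 for Vwf to 5.11 ± 0.31 for Tubb1, with a median of 3.62 against -0.16 over all genes.

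Per kilobase of exon, the order of the genes in ETV6-RUNX1 fetal liver was Pf4 (6679 ± 259 CPM per kilobase; SD, n = 3), Ppbp (535 ± 54.2), Gp9 (242 ± 53.6), Itga2b (216 ± 21.5), Tubb1 (101 ± 32.7), Gp1ba (96 ± 18.8), Vwf (32.7 ± 7.55), Gp5 (13.3 ± 0.638), Gp1bb (8.46 ± 0.0464) and Gp6 (4.01 ± 0.731). Gp9 and Itga2b did not differ beyond their spread, nor did Tubb1 and Gp1ba. The place of Gp1bb in this order is uncertain, since 1902 of its 2087 exon bases are also exon of Sept5. In WT marrow Tubb1 was at 0.84 ± 0.12 and Gp6 at 0.11 ± 0.104 CPM per kilobase, while Pf4 was at 1069.9 ± 247. Across the 12 libraries each gene was set against the mean log2(CPM + 1) of the other 9, as a description over points that share group and depth. Pearson's r was lowest for Gp9 (0.724) and Vwf (0.775) and highest for Gp1bb (0.983). Outside the lists used here, the 5 genes whose pattern was most like the mean of the 10 were I830077J02Rik (r = 0.990), Gm13431 (0.990), Dhrs3 (0.990), Hpgd (0.989) and Rgs10 (0.987), over 12 libraries.

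Further genes of the lineage were taken from 4 lists, and they were described by counts of calls and medians. For comparison, the whole table had 24.8% of its genes called up and 18.3% called down in fetal liver (median 0.08), 14.4% and 4.93% in marrow (median 0.13), and 5.56% and 3.62% for the interaction (median -0.05). Of 10 transcription factors of megakaryocytes, 7 rose and 1 fell in ETV6-RUNX1 fetal liver (median log2 fold change 0.56), and 1 rose and 1 fell in marrow (0.19). Gata1, the factor that drives megakaryocyte and erythroid maturation, was 34.8, 31.0 and 43.0 CPM in WT marrow, 11.9, 29.1 and 8.39 CPM in ETV6-RUNX1 marrow, 102, 75.1 and 98.4 CPM in WT fetal liver and 223, 278 and 209.7 CPM in ETV6-RUNX1 fetal liver. All ETV6-RUNX1 libraries were below WT in marrow and above WT in fetal liver. Gata1 rose by 1.36 ± 0.31 in fetal liver (limma adjusted p = 0.00308) and fell by 1.26 ± 0.31 in marrow (adjusted p = 0.0133), and its effects differed between the sources by 2.62 ± 0.44 (adjusted p = 0.00232). Lmo2, an adaptor of GATA complexes, rose in both fetal liver (0.64 ± 0.15, adjusted p = 0.0029) and marrow (0.83 ± 0.15, adjusted p = 0.00204), and Nfe2, a regulator of platelet release, rose in fetal liver (0.58 ± 0.12, adjusted p = 0.00158). Gfi1b, a repressor needed for megakaryocyte and erythroid development, fell in fetal liver by 0.88 ± 0.22 (adjusted p = 0.00535).

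Of 19 further platelet membrane receptors, 13 were higher and 1 lower in ETV6-RUNX1 fetal liver (median 1.07), 1 higher and none lower in marrow (-0.10), and 8 had a higher effect in fetal liver than in marrow by the interaction. P2ry12, the ADP receptor, was 11.5, 10.4 and 13.9 CPM in ETV6-RUNX1 fetal liver and no more than 0.68 CPM in any other library (fetal liver effect 3.37 ± 0.19, limma adjusted p = 1.24e-08; difference between the sources 3.47 ± 0.26, adjusted p = 5.14e-06). P2ry12 passed the filter on low values only through its ETV6-RUNX1 fetal liver libraries, so its p-values rest on that selection. Cd36, a thrombospondin receptor, rose by 3.41 ± 0.31 (adjusted p = 1.1e-06), with a difference between the sources of 2.94 ± 0.43 (adjusted p = 0.000844). The receptor for thrombin F2rl3 fell by 0.75 ± 0.19 in fetal liver (adjusted p = 0.00532). Pear1, a contact receptor of platelets, rose in marrow by 0.73 ± 0.23 (adjusted p = 0.0399). Without ETV6-RUNX1 marrow replicate 2, left out after it was seen to stand apart, the marrow count of this list became 0 higher and 3 lower. At that setting 10.7% of all genes tested were called in either direction, and the share called lower alone was not taken.

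Of 16 genes of granule cargo and secretion, 6 were higher and 1 lower in ETV6-RUNX1 fetal liver (median 0.59), and 2 lower in marrow (-0.04). Thbs1, which encodes the granule protein thrombospondin, was 86.7, 80.4 and 57.4 CPM in WT and 2079.5, 2213 and 1692 CPM in ETV6-RUNX1 fetal liver, a rise of 4.73 ± 0.70 (limma adjusted p = 0.000119). F5, coagulation factor V, rose by 2.71 ± 0.29 (adjusted p = 6e-06), with a difference between the sources of 2.37 ± 0.41 (adjusted p = 0.00267). Timp3, an inhibitor of metalloproteinases, fell in fetal liver by 1.36 ± 0.47 (adjusted p = 0.0306), with overlapping groups. In marrow Pdgfb, a platelet growth factor, fell by 1.12 ± 0.31 (adjusted p = 0.0216) and Clu, which encodes clusterin, fell by 0.43 ± 0.13 (adjusted p = 0.0326). The effect on Clu differed between the sources by 1.24 ± 0.18 (adjusted p = 0.000928).

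Of 23 cytoskeletal and signalling genes, 17 were higher and 1 lower in ETV6-RUNX1 fetal liver (median 0.89), and 4 higher and 2 lower in marrow (0.14, near the median of all genes). Myl9, a myosin light chain used in proplatelet formation, was 61.2, 87.3 and 60.9 CPM in ETV6-RUNX1 fetal liver and no more than 1.85 CPM elsewhere (fetal liver effect 5.69 ± 0.34, limma adjusted p = 2.19e-08; difference between the sources 5.42 ± 0.48, adjusted p = 2.28e-05). Myl9, too, passed the filter on low values only through its ETV6-RUNX1 fetal liver libraries, so its p-values rest on that selection. Alox12, the platelet 12-lipoxygenase, was 3.49, 2.96 and 4.48 CPM in WT marrow, 15.1, 87.0 and 14.0 CPM in ETV6-RUNX1 marrow, 24.0, 21.2 and 30.1 CPM in WT fetal liver and 894, 1169.7 and 1125.5 CPM in ETV6-RUNX1 fetal liver. It rose without overlap in both sources, by 5.36 ± 0.47 in fetal liver (adjusted p = 9.56e-07) and 2.59 ± 0.47 in marrow (adjusted p = 0.00259). Tuba8, an alpha tubulin of platelets, fell by 2.98 ± 0.50 in fetal liver (adjusted p = 0.000324) and fell by 1.77 ± 0.50 in marrow (adjusted p = 0.0248), the opposite direction to Tubb1 in fetal liver. In marrow Orai1, the store-operated calcium channel, rose by 1.07 ± 0.18 (adjusted p = 0.00189) and Ptgs1, cyclooxygenase-1, fell by 0.64 ± 0.14 (adjusted p = 0.00727). Gucy1b1, a subunit of the nitric oxide receptor, had a difference between the sources of 2.93 ± 0.51 (adjusted p = 0.00285).

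**Figure D5:**
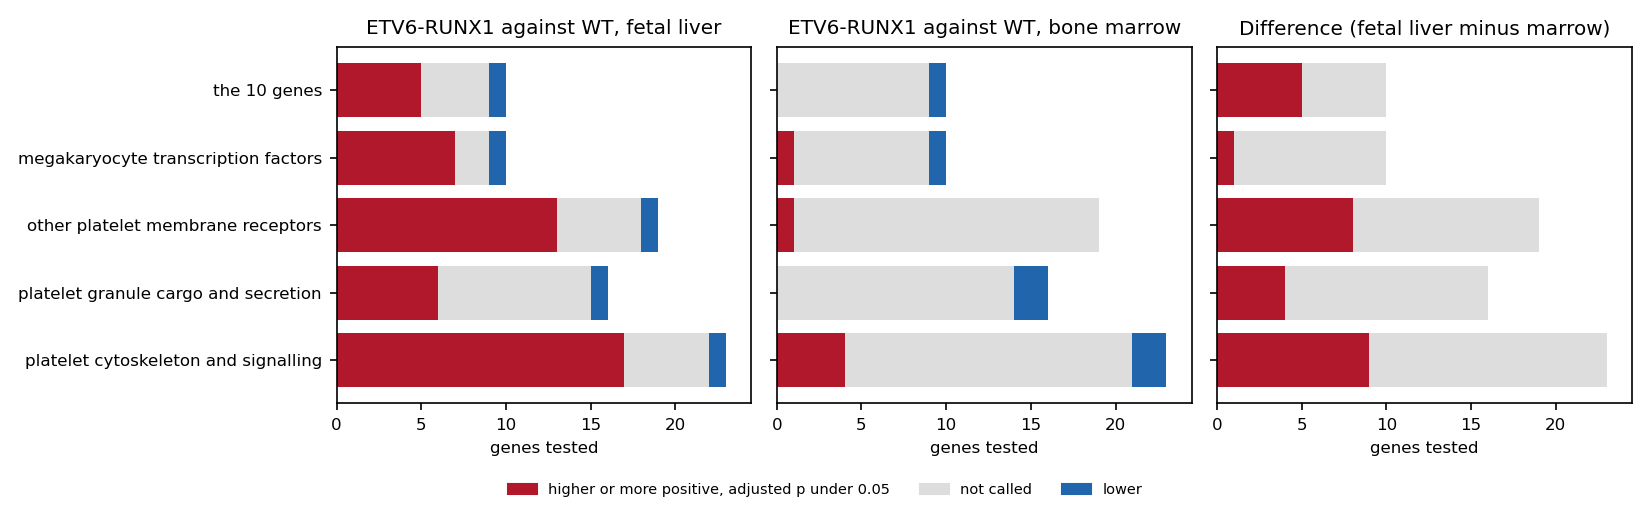
Numbers of genes called higher, called lower and not called (limma adjusted p under 0.05) among the 10 genes and each of the 4 further lists, in fetal liver, in bone marrow and for the difference between the sources. In fetal liver the genes called higher outnumber those called lower in all 5 lists, and in marrow most genes of each list were not called.

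Markers of other lineages moved with some of these groups. The 8 erythroid markers summed to 236 to 519 CPM in WT marrow, 421 to 632 in ETV6-RUNX1 marrow, 731 to 1012 in WT fetal liver and 1445 to 2218.5 in ETV6-RUNX1 fetal liver, most of it Hbb-bt. Klf1 went the other way in fetal liver at low levels, with 0.497 to 0.954 CPM in WT and 0.03 to 0.315 CPM in ETV6-RUNX1 cells. The 8 granulocyte and monocyte markers summed to 157 to 314, 104 to 131, 222 to 305 and 52.5 to 64.5 CPM in the same order of groups. Prtn3, the highest of them in every library, was 174 to 199 CPM in WT and 24.8 to 34.7 CPM in ETV6-RUNX1 fetal liver. Csf1r went the other way there, from 0.385 to 1.41 CPM in WT to 7.13 to 13.6 CPM in ETV6-RUNX1 cells. Ly6c2 was also higher in ETV6-RUNX1 fetal liver, at no more than 1.47 CPM. Summed levels of mast cell and basophil markers did not exceed 13.8 CPM, those of lymphocyte markers 3.21 CPM, those of stromal markers 13 CPM and those of hepatocyte markers 40.1 CPM in any library. The part of these cell types in the results was not tested.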

How the data were processed

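The authors deposited CPM values per gene for 12 libraries of total RNA; bcl2fastq, STAR 2.5.1a, Subread with featureCounts 1.4.6-p5, Salmon 0.8.2, edgeR, limma and the build GRCm38 appear in the submitters' processing notes, without their roles. The annotation and whether counting used strand are not given in the sources used here, so overlapping genes are uncertain. Of 40757 table entries, 276 duplicates of a gene ID were dropped. All values (100%) were whole multiples of a step within 0.01 read, which gave whole reads and library totals of 32.3 to 64.5 M.

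The 14271 genes that reached 1 CPM in 3 or more of 12 libraries were tested with limma 3.58.1 (mean-variance trend) on log2(CPM + 1), a coefficient per group of 3 and 8 residual degrees of freedom, with Benjamini-Hochberg adjustment and a threshold of 0.05. A fold change on this scale understates the change of low genes, and a difference between the sources can move either way. With a pseudocount of 0.1 this difference was 1.55 for Tubb1 and 2.41 for Gp1bb. Groups came from the sample titles and genotype labels. Single genes were also compared by exact permutation of 3 against 3 libraries. All 10 genes passed the filter. On simulated data with 200 changed genes among 14271, limma recovered 45 of 50 genes raised 2-fold and 48 of 50 lowered to 0.5 of their level. The simulation gave every gene and group the same dispersion of counts. It left out the wider spread of ETV6-RUNX1 marrow, so this recovery need not hold for the 10 genes.

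Named genes were the 10, up to 2 genes called in each direction by smallest p per further list and genotype comparison (with a mean of at least 1 CPM), and the 5 most alike in pattern; Sept5, Gm49601, Itgb3 and single markers were named after their values were seen. A gene of the further lists and a marker gene are not reported here. The members, lists and tests were chosen with earlier results of these data known. The settings tried were a replicate block, a pseudocount of 0.1, a filter of any read or of a mean of 5 CPM, quantile and median-of-ratios scaling, array weights, only the libraries compared, edgeR 4.0.16 (TMM, quasi-likelihood) and DESeq2 1.42.0 on the recovered reads, and leaving out each library. Leaving ETV6-RUNX1 marrow replicate 2 out of the further lists was chosen after seeing the data. Positions and exon lengths are from GENCODE M21 (GRCm38), in which 99.44% of gene IDs were found.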

Additional observations from a re-analysis of the deposited data

Results flagged for a closer look

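For 5 of the 10 genes, the genotype effect passed limma's test of the difference between the sources itself (adjusted p under 0.05). The difference, fetal liver minus bone marrow on the log2 scale, was 1.66 for Gp9, 1.70 for Gp1bb, 1.56 for Gp5, 1.53 for Vwf and 1.86 for Tubb1. For Gp9 both effects were negative and the marrow effect was the larger in size. Gp1bb, Gp5 and Vwf had a positive effect in fetal liver and a negative effect in marrow, the latter not called for any of these 3. The fetal liver effect of Gp5 was not called either. Tubb1 had a positive effect in both sources, called in fetal liver but not in marrow.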

How the results depend on the processing

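All 10 calls of fetal liver against marrow in ETV6-RUNX1 cells were kept in each alternative run, as were 5 of 6 in WT cells, 4 of 6 genotype calls in fetal liver (Gp9, Gp1ba, Vwf and Tubb1), the marrow call of Gp9, and 2 of 5 interaction calls (Gp9 and Vwf). No called value reversed in any alternative. For the other results named here the cause was not tested. In fetal liver, array weights called all 10 genes (and 54.8% of all genes), DESeq2 lost Gp1bb (adjusted p = 0.0951) and Itga2b (0.0678), and all genes with reads lost Itga2b (0.124). In marrow the count of calls was 2 with a pseudocount of 0.1 and with edgeR (Tubb1 higher, Gp9 lower; 18.8% and 19.2% of all genes called), 2 with quantile normalization and with array weights (both lower; 18% and 22.4%), 3 with DESeq2 (1 higher, 2 lower; 23.1%), and 1 to 4 with a library left out; it was 4 without ETV6-RUNX1 marrow replicate 2 and 2 without ETV6-RUNX1 marrow replicate 3 or ETV6-RUNX1 fetal liver replicate 3. The interaction count was 2 with a pseudocount of 0.1, with all genes with reads and with edgeR (8.3%, 2.62% and 7.74% of all genes called). It was 8 with array weights (25.5% of all genes) and 2 to 9 with a library left out. Without ETV6-RUNX1 marrow replicate 2 it was 9 (9.49%). It was 3 without replicate 1 or 3 of that group (6.2% and 7.48%) or WT marrow replicate 2 or 3 (5.12% and 6.32%). It was 2 without WT fetal liver replicate 2 (5.37%) or ETV6-RUNX1 fetal liver replicate 1 or 2 (5.94% and 6.17%).

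Signs changed only for values that were not called. In marrow Gp1ba was -0.071 with quantile normalization and -0.15 to 0.52 with a library left out, Ppbp was 0.50 with edgeR and -2.18 to 0.47 with a library left out, and with a library left out Vwf ran from -0.28 to 0.020, Gp6 from -0.65 to 0.062 and Gp1bb from -0.73 to 0.036. Between the sources in WT, Vwf was -0.13 with array weights and -0.13 to 0.19 with a library left out. Libraries of the same replicate number did not correlate steadily between genotypes (correlations of deviations 0.16, -0.08 and 0.22 in fetal liver and -0.31, 0.12 and -0.40 in marrow). Unlike numbers reached 0.44 in marrow (ETV6-RUNX1 replicate 3 with WT replicate 1). With 3 libraries a group, these values cannot exclude pairing or a shared batch. With the replicate block the counts of calls were 6 in fetal liver, 1 in marrow and 4 for the interaction. Of all genes tested, 40.9%, 16.4% and 7.24% were called there. Gp5 lost its interaction call with the block (limma adjusted p = 0.0766). DESeq2 gave no adjusted p for Pf4 and Ppbp. Of all genes tested, edgeR called 6178 and DESeq2 6540 in fetal liver, 2739 and 3297 in marrow, and 1105 and 1769 for the interaction. Median-of-ratios scaling moved the median of all genes from 0.13 to 0.01 in marrow and from -0.16 to -0.01 between the sources in ETV6-RUNX1 cells, and quantile normalization moved it from 0.08 to -0.10 in fetal liver and from 0.13 to -0.04 in marrow.

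With 3 libraries a group, 1 library sets much of the marrow result. In ETV6-RUNX1 marrow, Gp6 had 0, 51 and 0 reads and Gp1bb 5, 74 and 15, where counting error adds to the spread.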
